A study of Mus musculus with 2 samples.

Results

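WNT proteins are secreted, lipid-modified signals that the cells of the embryonic face use to control outgrowth, patterning and fusion of the prominences. They bind Frizzled receptors together with a coreceptor. In the beta-catenin branch this stops the APC and AXIN complex from destroying beta-catenin, which then works with TCF and LEF factors on target genes, and in other branches the ROR and RYK receptors carry the signal without beta-catenin. Described here are 60 genes of this system, taken by a list of mouse symbols grouped by their role. They fall into 23 ligands (19 Wnt genes and 4 R-spondins), 17 receptors and coreceptors, 10 secreted antagonists, 2 secretion genes and 8 intracellular effectors. All 60 were found among the 42462 genes with a symbol in the deposited tables.

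The data were total RNA-seq of the embryonic facial prominence, the tissue that forms the face, taken from B6NCrl mice at embryonic day 10.5. The single group had 2 biological replicates, each a pool of male and female embryos. Replicate 1 was made from 69 embryos and replicate 2 from 51, and the labels described all embryos as healthy, with no allele or treatment. With no second group and 1 library for each pool, no contrast could be tested, and differences between the pools are descriptions without a p-value.

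Named genes received 39956861 expected counts (reads assigned by the authors' estimate, not normalized) in replicate 1 and 39428787 in replicate 2, of which the 60 WNT genes held 0.291% and 0.283%. Levels are given as TPM, a unit scaled for transcript length and library size in which different genes can be compared. The labelled tissue was checked on markers. All 10 facial mesenchyme markers reached 1 TPM in both pools, as did 9 of 10 surface ectoderm, 7 of 7 neuron, 5 of 5 endothelium and 4 of 4 erythroid markers, so the pools held several cell types. A level in such a mixture cannot tell fewer cells of a type apart from less RNA per cell. The pools were not alike in all markers. The summed level of 9 Hox genes of the hindbrain and arches was 16.8 TPM in replicate 1 and 45.8 in replicate 2, that of 6 heart genes was 15.1 and 45.5, and that of 12 neural tube and brain genes was 125 and 185.

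A gene was called detected at 1 TPM or more in both pools. By that measure 47 of the 60 WNT genes were detected (78.3%), beside 58.2% of all named protein coding genes. Their median level was 8.40 TPM, beside 3.57 TPM over the protein coding genes. Detection differed between classes. The receptors and coreceptors were detected in full (17 of 17), as were the intracellular effectors (8 of 8) and the secretion genes (2 of 2). The antagonists were nearly so (8 of 10). Of the ligands, 12 of 23 were detected (52.2%), a share near the 58.2% of all named protein coding genes. The ligand count depended on the threshold, with 18 of 23 at 0.5 TPM or more in both pools. The 13 genes short of detection at 1 TPM were 10 Wnt genes, Rspo4, Sfrp4 and Sfrp5.

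**Figure D1:**
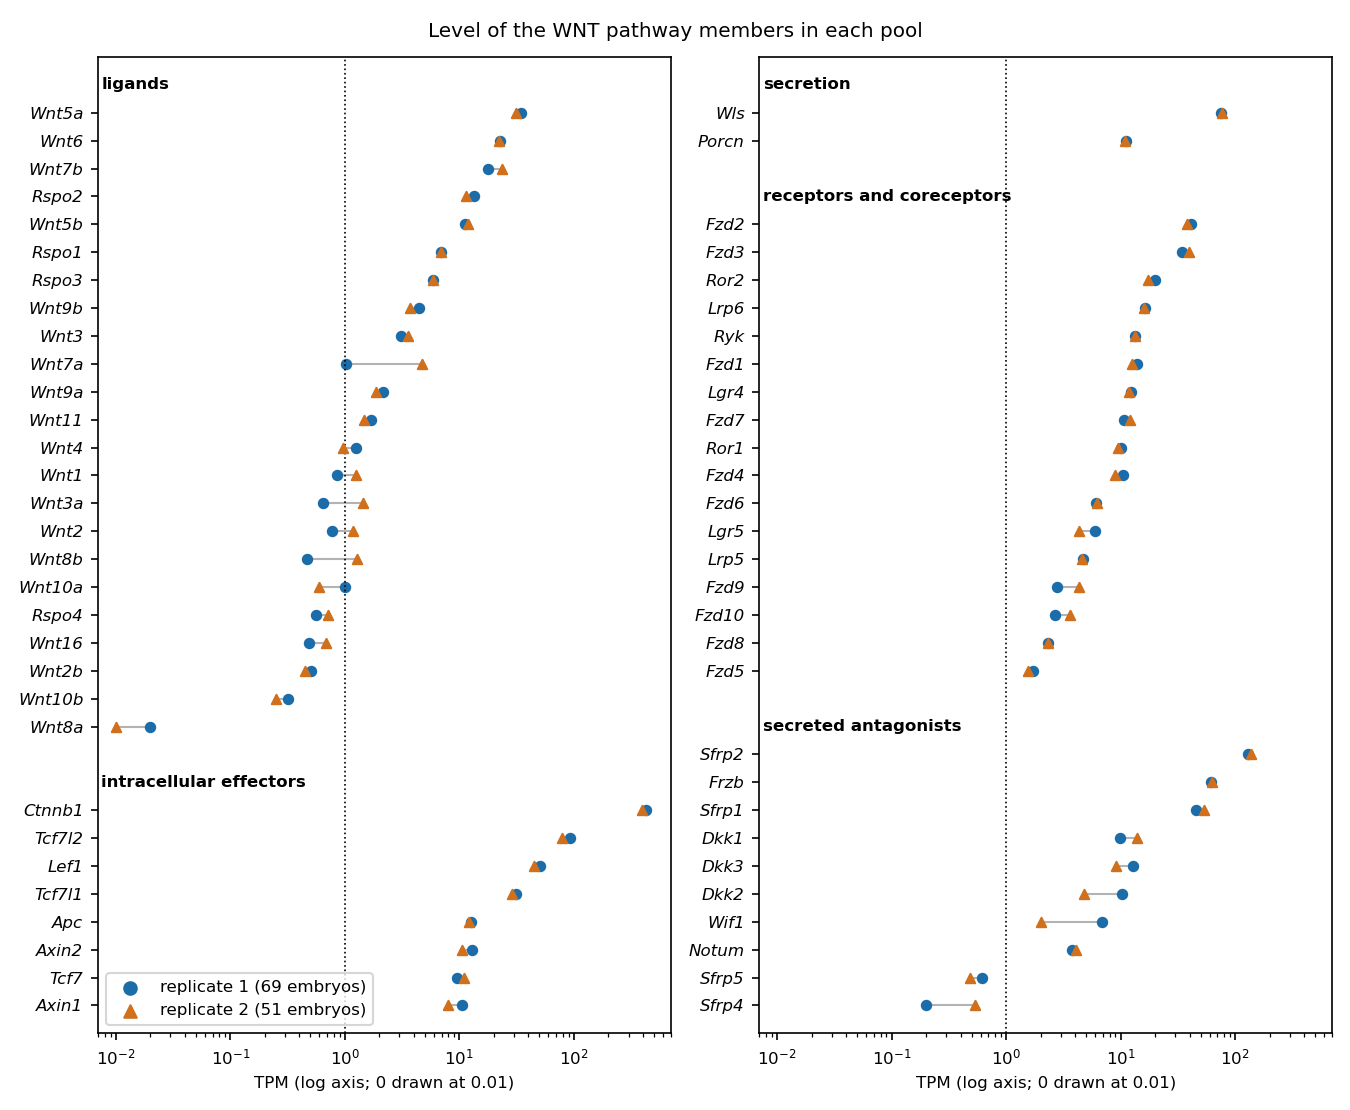
TPM of each of the 60 WNT genes in replicate 1 (circles) and replicate 2 (triangles), by class, on a log axis, with 0 drawn at 0.01 and the dotted line at 1 TPM. Ctnnb1 is highest at 424 and 394 TPM, all receptors lie to the right of the line, and the ligands spread across it from Wnt5a down to Wnt8a.

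Among the Wnt genes, 4 held most of the RNA. Wnt5a, Wnt6, Wnt7b and Wnt5b made up 82.0% of the summed Wnt level in replicate 1 and 79.1% in replicate 2. Wnt5a, known as a signal through ROR2 in limb and facial outgrowth, led at 34.2 TPM in replicate 1 and 31.2 in replicate 2. It lies on chromosome 14 (chr14:28504750-28527448 in mm10, plus strand). Its share of the Wnt level was 30.3% ± 3.53 (SD, n = 2 pools). By expected counts, 4117 in replicate 1 and 3156 in replicate 2, Wnt5a was 1.27-fold higher in replicate 1, a wider gap than in TPM, which also divides by the deposited effective length (4537 bases in replicate 1 and 3840 in replicate 2).

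Wnt6 followed at 22.5 and 22.2 TPM and Wnt7b at 17.6 and 23.4, both known from embryonic epithelia, and the ranges of these genes overlapped. Wnt5b, the closest relative of Wnt5a, stood at 11.2 and 11.9 TPM. The ranges of Wnt5a, of the pair Wnt6 and Wnt7b, and of Wnt5b did not overlap.

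A middle tier lay between 1 and 5 TPM. Wnt9b, whose loss causes cleft lip in mice, was at 4.47 TPM in replicate 1 and 3.74 in replicate 2. Wnt3, a ligand of the beta-catenin branch in ectoderm, was at 3.12 and 3.58, Wnt9a at 2.16 and 1.89, and Wnt11 at 1.69 and 1.47. Wnt7a, known from dorsal limb ectoderm and the neural tube, was at 1.02 TPM in replicate 1 and 4.68 in replicate 2. Its range covered those of Wnt9b, Wnt3, Wnt9a and Wnt11, so its place in the order is not fixed by these pools.

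The remaining 10 Wnt genes were near or below the line. In 6 of them 1 pool reached 1 TPM and the other did not. Replicate 2 was the higher pool for Wnt1 (0.86 and 1.25 TPM in replicates 1 and 2), Wnt2 (0.78 and 1.18), Wnt3a (0.65 and 1.44) and Wnt8b (0.47 and 1.27). Replicate 1 was the higher pool for Wnt4 (1.26 and 0.96) and Wnt10a (1.01 and 0.59). Wnt16, Wnt2b, Wnt10b and Wnt8a stayed under 1 TPM in both pools. Wnt16 (0.49 and 0.69) and Wnt2b (0.51 and 0.45) were the highest of them, with overlapping ranges. Wnt8a had 1 count in replicate 1 and 0 in replicate 2, where 0 allows a level of up to 0.0691 TPM by 3 counts. From Wnt4 down to Wnt2b, each gene's range overlapped that of the next in the order.

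Levels of close relatives were set beside each other. For each of 22 gene pairs fixed for comparison, most of them paralogs, the ratio was taken as log2(TPM + 0.1), a scale that understates the ratio of low genes. In 21 of the 22 the lower pool of the higher gene exceeded the higher pool of the other. This share was not taken for other pairs of genes, so it cannot be called particular to relatives. Small gaps also count here: Fzd1 was 1.16-fold above Fzd7 as a mean, 1.30-fold in replicate 1 and 1.03-fold in replicate 2. Wnt7b was 8.83-fold above Wnt7a as a mean, but 15.8-fold in replicate 1 and 4.92-fold in replicate 2. Wnt3 was 3.20-fold above Wnt3a, Wnt5a was 2.82-fold above Wnt5b and Wnt9b was 1.98-fold above Wnt9a, as means of the pools. The exception among the 22 was Axin1 with Axin2. Within each pool Axin2 was still the higher gene, 1.21-fold in replicate 1 and 1.33-fold in replicate 2.

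Several Wnt genes sit beside each other in the genome, as remnants of an old duplicated cluster. Within 100 kb of each other, 4 such pairs were found on GRCm38 (mm10), each with no other named gene between. Neighbours were not at like levels in every pair. Wnt6 and Wnt10a lie 6194 bases apart on chromosome 1 on the same strand, and the mean TPM of Wnt6 was 27.9 times that of Wnt10a (22.3 times in replicate 1 and 37.6 in replicate 2). In contrast, Wnt9b and Wnt3, 24329 bases apart on chromosome 11 on opposite strands, differed 1.23-fold. Wnt9a was 3.32-fold above Wnt3a, its neighbour at 16176 bases on the same chromosome, in replicate 1 and 1.31-fold above it in replicate 2. Wnt1 was 2.69-fold above Wnt10b, at 11707 bases on chromosome 15, in replicate 1 and 5.0-fold in replicate 2.

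R-spondins raise the response to WNT by keeping Frizzled receptors at the surface, acting through LGR receptors. Rspo2, needed for normal lip and palate in mice, led them at 13.5 TPM in replicate 1 and 11.5 in replicate 2, which was 48.1% ± 3.0 (SD, n = 2 pools) of the R-spondin level. Rspo1 stood at 6.92 and 6.85 TPM and Rspo3 at 5.87 and 5.94. Rspo4, known from nail development, was under the line at 0.56 and 0.72. The ranges of the 4 genes did not overlap.

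All 10 Frizzled receptors were detected, and 2 of them made up 59.8% of their summed level in replicate 1 and 60.1% in replicate 2. Fzd2, a receptor of the beta-catenin branch and of WNT5A, was at 41.4 TPM in replicate 1 and 38.3 in replicate 2. Fzd3, known from axon guidance and planar polarity, was at 34.4 and 39.4 TPM, and the ranges of the pair overlapped. Their order therefore changed from pool to pool, with Fzd2 first in replicate 1 and Fzd3 first in replicate 2.

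Fzd1 (14.0 and 12.5 TPM), Fzd7 (10.8 and 12.1), Fzd4 (10.6 and 8.98) and Fzd6 (6.15 and 6.17) formed the next tier. Fzd4 is also the receptor of norrin in blood vessels, and Fzd6 shares planar polarity roles with Fzd3. The lowest were Fzd9 (2.80 and 4.29), Fzd10 (2.65 and 3.60), Fzd8 (2.31 and 2.33) and Fzd5 (1.70 and 1.54). Fzd2 was 3.47-fold above its relative Fzd7, and Fzd3 was 5.89-fold above Fzd6. Fzd4 was 2.76-fold above Fzd9.

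All 5 coreceptors were detected. Ror2, the receptor tyrosine kinase through which WNT5A acts, was at 19.9 TPM in replicate 1 and 17.3 in replicate 2. Lrp6, the main coreceptor of the beta-catenin branch, was at 16.3 and 15.8 TPM, and its relative Lrp5 was 3.42-fold lower at 4.71 and 4.55. Ryk, which binds WNT through its own WIF domain, was at 13.4 and 13.3 TPM, and Ror1 was at 10.1 and 9.53. The ranges of these 5 genes did not overlap, with Ror2 above Lrp6, Ryk, Ror1 and Lrp5 in that order.

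Of the R-spondin receptors, Lgr4 was at 12.3 TPM in replicate 1 and 11.8 in replicate 2, and Lgr5, best known as a stem cell marker of the gut, was at 5.91 and 4.34. Lgr4 held 70.4% ± 3.91 (SD, n = 2 pools) of their summed level. The most abundant Lgr4 transcript differed between the pools: Lgr4-202 was 59.1% of the gene in replicate 1 and 44.5% in replicate 2, and Lgr4-201 was 39.2% and 52.4%. These transcripts differ by a coding exon of 72 bases (chr2:109970692-109970763 in GRCm38, plus strand), which adds 24 residues and keeps the frame. The exon was included in 39.9% of the coding RNA that holds or skips it in replicate 1 and in 54.1% in replicate 2. It is shown in capitals with 15 bases of each flanking exon in lower case, from the GENCODE transcript.
Lgr4 exon: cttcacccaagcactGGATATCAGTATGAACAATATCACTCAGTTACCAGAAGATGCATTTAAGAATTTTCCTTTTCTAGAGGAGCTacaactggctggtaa

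**Figure D2:**
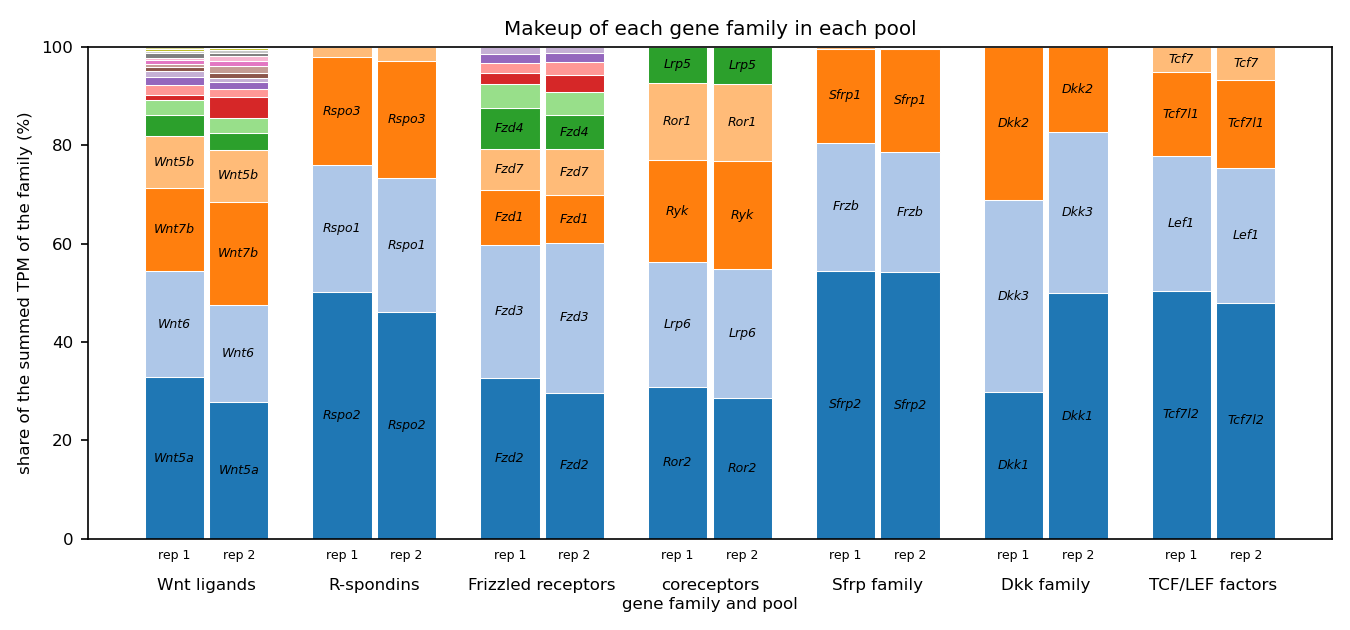
Share of the summed TPM of each family held by each member (stacked, percent), for replicate 1 and replicate 2. Sfrp2 holds 54.5% and 54.2% of the Sfrp family and Wnt5a 32.8% and 27.8% of the Wnt ligands, whereas in the Dkk family the largest segment is Dkk3 in replicate 1 and Dkk1 in replicate 2.

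Antagonists of the Sfrp family, which bind WNT outside the cell, were the most abundant secreted group. Their summed level was 2.27 times that of the 19 Wnt genes in replicate 1 and 2.28 times in replicate 2, and 1.87 and 1.98 times that of the Frizzled receptors. Sfrp2 was at 129 TPM in replicate 1 and 139 in replicate 2, Frzb (also called Sfrp3, known from cartilage) at 61.7 and 62.5, and Sfrp1 at 45.2 and 53.8. These 3 genes made up 99.6% ± 0.0368 (SD, n = 2 pools) of the family. Sfrp5 (0.61 and 0.48 TPM) and Sfrp4 (0.20 and 0.53) were not detected. Sfrp2 was 2.71-fold above Sfrp1, and Frzb 143-fold above its closest relative Sfrp4.

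The Dkk genes encode proteins that bind LRP5 and LRP6, DKK3 being the divergent member. Dkk1, an antagonist needed for head formation, was at 9.82 TPM in replicate 1 and 13.8 in replicate 2. Dkk3 was at 12.9 and 9.07 TPM and Dkk2 at 10.3 and 4.81. The 3 ranges overlapped along this order, and the order of the genes differed between the pools, with Dkk3 first in replicate 1 and Dkk1 first in replicate 2. Wif1, a secreted WNT-binding protein, was at 6.84 and 2.03 TPM, and Notum, an enzyme that removes the lipid from WNT, at 3.73 and 4.04.

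Both genes of WNT secretion were detected. Wls, the carrier that takes WNT proteins to the cell surface, was at 75.8 TPM in replicate 1 and 77.2 in replicate 2. Porcn, the X-linked enzyme that attaches the lipid, was at 11.1 and 10.9 TPM, 6.93-fold below Wls. Porcn RNA was spread over several transcripts. Porcn-203 led at 36.2% of the gene in replicate 1 and 27.2% in replicate 2, and the coding transcripts that could be compared (64.3% of the gene's TPM) differed in 2 small exons on the minus strand of the X chromosome. An exon of 18 bases (chrX:8203026-8203043) was included in 42.1% of that RNA in replicate 1 and 58.7% in replicate 2, and an exon of 15 bases (chrX:8201658-8201672) in 17.3% and 27.7%. They encode 6 and 5 residues and keep the frame. In the full-length form they follow each other directly, so the lower-case flank after the first is the whole of the second.
Porcn exon of 18 bases: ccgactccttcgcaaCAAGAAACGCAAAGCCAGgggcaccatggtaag
Porcn exon of 15 bases: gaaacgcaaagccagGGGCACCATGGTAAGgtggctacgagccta

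Inside the cell, Ctnnb1, the beta-catenin gene, was the most abundant of the 60 genes at 424 TPM in replicate 1 and 394 in replicate 2. It made up 30.7% ± 0.883 (SD, n = 2 pools) of their summed level; beta-catenin is also a structural part of cell junctions. Apc, the scaffold that helps to destroy it, was at 12.6 and 12.3 TPM. Axin2, the scaffold gene that WNT signals induce, was at 12.9 and 10.6 TPM and Axin1, the constitutive scaffold, at 10.6 and 7.95. The ranges of Apc and Axin2 and those of Axin2 and Axin1 overlapped.

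For some genes the TPM and the counts gave different pictures. The log2 TPM ratio (replicate 2 over replicate 1) was 0.30 below that of scaled counts for Lgr5, 0.25 for Notum and 0.24 for Axin2. For Wnt5a it was above, as given earlier. The gap was widest for Axin1. Its expected counts were 794 in replicate 1 and 747 in replicate 2, a scaled ratio of 0.97, whereas the TPM ratio was lower by 0.36 on the log2 scale. The deposited effective length, which enters TPM, was 2832 bases in replicate 1 and 3567 in replicate 2, and a short transcript with a retained intron, Axin1-205, was given 20.6% of the gene in replicate 1 and 0% in replicate 2. An exon of 108 bases (36 residues, in frame, chr17:26192516-26192623, plus strand) was included in 81.9% and 87.5% of the comparable Axin1 coding RNA.
Axin1 exon: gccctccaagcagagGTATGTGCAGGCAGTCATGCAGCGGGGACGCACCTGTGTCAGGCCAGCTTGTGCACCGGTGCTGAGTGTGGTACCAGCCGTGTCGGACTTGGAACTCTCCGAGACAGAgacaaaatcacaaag

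The TCF and LEF genes encode the DNA-binding partners of beta-catenin. Tcf7l2 led at 93.0 TPM in replicate 1 and 78.1 in replicate 2, which was 49.1% ± 1.67 (SD, n = 2 pools) of the family. Lef1, an activator and itself a target of WNT signals, was at 50.8 and 44.8 TPM, Tcf7l1, mostly known as a repressor, at 31.4 and 29.1, and Tcf7 at 9.57 and 10.9. The ranges of the 4 genes did not overlap. Tcf7l2 was 2.81-fold above Tcf7l1 and Lef1 was 4.64-fold above Tcf7.

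Lef1 was the other gene whose most abundant transcript changed between the pools. Lef1-204 was 45.9% of the gene in replicate 1 and 35.1% in replicate 2, and Lef1-202 was 44.0% and 54.7%. These differ by an exon of 41 bases near the end of the coding sequence (chr3:131204933-131204973, plus strand), of which 32 are coding where it is included. Its inclusion was 50.4% in replicate 1 and 61.9% in replicate 2. An upstream Lef1 exon of 84 bases (28 residues, in frame, chr3:131191023-131191106) was included in only 2.89% and 2.54%. In Tcf7l1 an exon of 42 bases (14 residues, in frame, chr6:72648801-72648842, minus strand) was included in 5.54% and 6.38%.
Lef1 exon of 41 bases: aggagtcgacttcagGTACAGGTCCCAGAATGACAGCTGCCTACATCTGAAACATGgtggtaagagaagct
Lef1 exon of 84 bases: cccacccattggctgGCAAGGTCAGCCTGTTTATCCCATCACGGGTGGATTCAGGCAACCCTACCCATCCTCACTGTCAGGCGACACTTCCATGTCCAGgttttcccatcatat
Tcf7l1 exon: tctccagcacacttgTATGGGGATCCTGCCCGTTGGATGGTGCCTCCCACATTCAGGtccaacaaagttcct

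These exons are shown because inclusion separates the protein forms of the same gene. In all, 18 coding exons that are skipped by another coding transcript were found among the WNT genes with at least 5 TPM. Of these, 11, in 7 genes, were included in between 2% and 98%. Such exons were not counted in other genes, so these counts cannot be called particular to WNT genes. The remaining variable exons were nearly always included: a Lrp6 exon of 394 bases at 93.8% and 94.7%, and 3 neighbouring Tcf7l2 exons at 91.7% and 90.2%, the last from transcripts that cover 50.9% of the gene's TPM. Of 23 genes with at least 5 TPM and at least 2 annotated transcripts, 21 had the same leading transcript in both pools (91.3%, beside 93.8% of 7738 genes that met the same conditions). Transcript shares are estimates from short reads with no stated error, and 1 library per pool gives no test of the shifts in Lgr4, Porcn and Lef1.

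**Figure D3:**
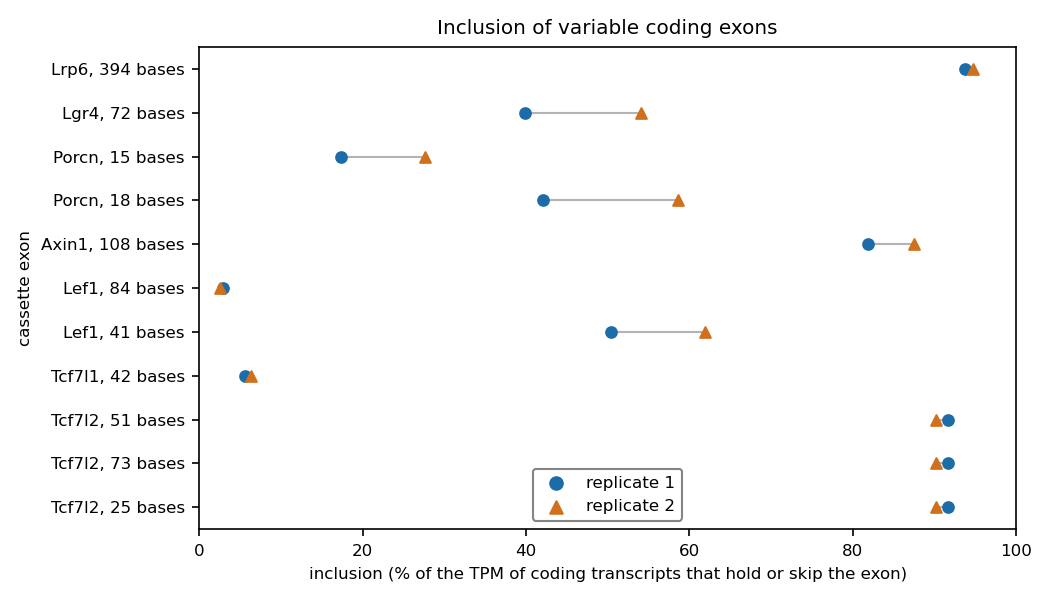
Inclusion of 11 variable coding exons in 7 WNT genes (percent of the TPM of coding transcripts that hold or skip the exon) in replicate 1 (circles) and replicate 2 (triangles). The Lgr4, Porcn and Lef1 41-base exons are further right in replicate 2, and the Lrp6, Tcf7l1, Lef1 84-base and Tcf7l2 exons lie nearly on top of each other.

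The pools were then compared gene by gene, as the ratio of expected counts after TMM scaling, in the 52 WNT genes whose counts averaged 50 or more. Of the 52, 36 lay within 1.2-fold (69.2%, beside 82.9% of the named genes with that count), and the median absolute log2 ratio was 0.16, beside 0.094 over those genes. Those at least 1.5-fold higher in replicate 2 were 5 of 52 (9.62%, beside 1.97% of the 14038 named genes), and those at least 1.5-fold higher in replicate 1 were 2 of 52 (3.85%, beside 2.66%). In either direction 4.62% of the named genes were that far apart. Over all named genes, such shares were larger where counts were low, and the part of low counts in the WNT shares was not tested. Among the 12 WNT genes with a mean count of 50 to 250, a range chosen after the values were seen, 5 were higher in replicate 2 and 1 in replicate 1, beside 6.04% and 9.28% of all named genes in that range.

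The 5 genes higher in replicate 2 were 4 Wnt ligands and a Frizzled receptor. Wnt7a had 83 counts in replicate 1 and 311 in replicate 2, a scaled ratio of 3.78 with a 95% exact interval of 3.01 to 4.96. Intervals here are Clopper-Pearson intervals on the split of the counts and cover counting error only. Wnt8b, a ligand of the forebrain margin, had 41 and 110 counts, a ratio of 2.68 (interval 1.91 to 4.05). Wnt3a, a ligand of the dorsal neural tube and tail bud, had 46 and 101 counts, a ratio of 2.20 (1.58 to 3.27). These 3 were the WNT genes at least 2-fold higher in replicate 2, beside 0.556% of all genes tested. With scaling by spike-in totals Wnt3a, at a log2 ratio of 0.92, did not reach 2-fold.

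Wnt2 had 39 and 66 counts, a ratio of 1.70 (1.15 to 2.65), and Fzd9, known from the developing brain, had 163 and 248, a ratio of 1.56 (1.28 to 1.92). Both intervals reached below 1.5. Wnt2 did not reach 1.5-fold in the ratio of deposited TPM (log2 ratio 0.54) or with spike-in scaling (0.55), nor did Fzd9 with spike-in scaling (0.42). Just under the threshold on this side were Wnt1 at 1.46-fold, Dkk1 at 1.43-fold, Fzd10 at 1.39-fold and Wnt7b at 1.36-fold.

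The 2 genes higher in replicate 1 were antagonists. Wif1 had 349 counts in replicate 1 and 99 in replicate 2 and was 3.38-fold higher in replicate 1 (interval 2.74 to 4.33). Dkk2 had 979 and 456 counts and was 2.09-fold higher (1.87 to 2.34). Both passed 2-fold, which 0.677% of all genes tested did on this side. Dkk3 was just under the threshold at 1.39-fold higher in replicate 1.

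Beside these differences, markers of other tissues also differed between the pools. Of 6 Hox genes with enough counts, 6 were at least 1.5-fold higher in replicate 2, with Hoxb1 at 1.03 and 5.91 TPM. Of 5 heart genes with enough counts, 5 were, with Myl7 at 4.53 and 20.0 TPM. The heart gene left out for low counts, Nkx2-5, was lower in replicate 2, at 0.64 and 0.40 TPM. Of 10 neural tube and brain genes, 4 were higher in replicate 2 (Hes5, Pax6, Lmx1a and Pax2) and 0 in replicate 1. Hes5 stood at 71.2 and 126 TPM, while Emx2 (10.2 and 6.69) did not reach 1.5-fold either way. Hoxd4 had no counts in either pool. In the other direction, the mesenchyme gene Alx1, the ectoderm gene Krt5 and the endoderm genes Pax9 and Nkx2-1 were at least 1.5-fold higher in replicate 1. The summed ectoderm markers were 359.6 and 360.5 TPM and the neuron markers 507 and 512. The part of these tissues in the WNT differences was not tested.

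**Figure D4:**
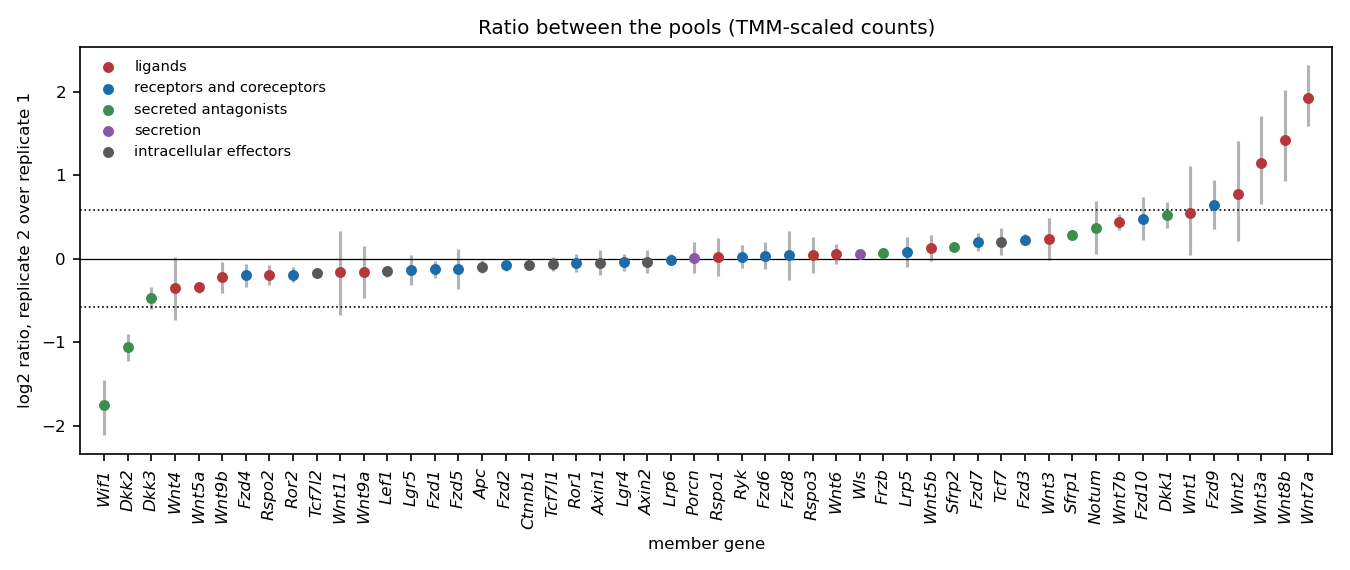
log2 ratio of replicate 2 over replicate 1 (TMM-scaled expected counts) for the 52 WNT genes whose counts averaged 50 or more, in order, coloured by class, with bars for the 95% exact counting interval and dotted lines at 1.5-fold. Wif1 and Dkk2 lie below the lower line and Fzd9, Wnt2, Wnt3a, Wnt8b and Wnt7a above the upper.

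Other genes of the pathway, from a list of 70 that are not among the 60, were set beside them. In all, 60 of the 70 were detected (85.7%, beside 58.2% of protein coding genes), at a median of 14.9 TPM. Of 64 with enough counts, 2 were at least 1.5-fold higher in replicate 2 and 0 in replicate 1, a share apart (3.12%) near the 4.62% of all named genes. The 2 were Celsr2, a planar polarity cadherin (8.68 and 16.9 TPM), and Draxin, a secreted guidance protein that also opposes WNT (1.26 and 1.99).

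Among partners of the AXIN and APC complex and Dishevelled, the phosphatase scaffold Ppp2r1a (301.5 and 301.6 TPM) and the kinase Csnk1a1 (217 and 224) were highest, and Dvl1 (3.63 and 4.14) was lowest, below Dvl2 at 49.7 and 49.9 and Dvl3 at 24.4 and 25.6. The corepressor Ctbp1 (296 and 292 TPM) led the nuclear cofactors, and the beta-catenin cofactor Bcl9l was lowest at 3.99 and 4.01. The glypican Gpc3 was at 609 and 608 TPM. Ptk7, a planar polarity receptor, led its group at 77.4 and 78.7, and Dact2 was lowest at 0.57 and 0.71. Kremen1, a partner of DKK1, was at 14.0 and 14.5 TPM, and Znrf3, which removes Frizzled receptors, at 11.1 and 11.5.

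Of 18 genes commonly induced by WNT signals in various tissues, 6 of which are among the 60, 16 were detected. Ccnd1 (161 and 157 TPM) and Myc (55.0 and 57.5) were highest, followed by Lef1, by Bambi, a decoy receptor of the BMP and TGF-beta pathways (18.2 and 23.3), and by Nkd1, a feedback inhibitor of WNT signals (21.4 and 18.7). The lowest were the tail bud gene T (0.33 and 0.49) and Cdx1 (0.23 and 0.37), both under 1 TPM. Of the 16 with enough counts, 0 were 1.5-fold apart between the pools, a count near the share of all named genes (4.62%). Ccnd1 and Myc respond to many signals besides WNT.

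Promoters were searched on both strands of 300 bases around each start site (RefSeq, GRCm38.p6) for 3 spellings of the TCF and LEF motif. A promoter was found for 40 of the 60 genes, 49 promoters in all. The spelling CTTTGAT was in 2 of the 49 (4.08%, beside 3.73% of 32851 promoters in the table), those of Wnt11 and Wnt5b. CTTTGTT was in 4 (8.16%, beside 5.85%), those of Dkk1, Fzd7, Tcf7l2 and Wnt3. The third, CTTTGAA, was in that of Dkk1 (2.04%, beside 5.14%). Any of the 3 was present in 6 of 49 (12.2%, beside 13.9%). A match is only a run of letters, and the share was near that of all promoters.

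Reads of overlapping genes may be mixed, since the sources used here do not give the strand setting of the counting. Exons of 12 of the 60 genes overlap those of another annotated gene. The share over all genes was not taken, so this count cannot be called particular to WNT genes. The antisense gene Gm26771 overlaps Sfrp2 by 347 bases and was at 5.33 and 4.33 TPM, and Gm2670 overlaps Wnt5a by 358 bases and was at 1.36 and 0.70. Ulk4 shares 759 exonic bases with Ctnnb1 and was at 3.21 and 3.43 TPM. Each was far below the WNT gene it overlaps.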

How the data were processed

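Total RNA longer than 200 nt was extracted from each pool, and 10 ng entered each library with spike-in controls, per the labels' protocols. The authors deposited expected counts per gene (estimated, not normalized), TPM per gene and transcript, posterior mean estimates with their SD, effective lengths in bases, and each transcript's percent of its gene. Per the file headers and notes, the assembly was mm10 with GENCODE M4. Neither aligner, quantifier nor strand setting is given in the sources used here.

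Symbols and coordinates came by gene ID from GENCODE M21 (GRCm38). Genes without a symbol there held 0.255% and 0.26% of gene counts and, like spike-ins (3.46% and 3.94% of all counts) and phiX, stayed out of library sizes. Pool ratios used expected counts, rounded to whole numbers, with TMM from edgeR 4.0.16 (R 4.3.3), a prior count of 2 and a mean count of at least 50. With 1 library a side this gives no test. The ratio code was tested on simulated data. Intervals are 95% Clopper-Pearson from scipy 1.17.1. Whether the pools came from separate litters is not stated, so their spread is that of these 2 libraries. Alternatives covered the detection threshold, posterior means, scaling by DESeq2 1.42.0 size factors, totals, spike-ins or TPM, the prior, the count minimum and the pseudocount.

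The members, lists and rules were chosen with earlier results of these data known, and the exon analysis and its 2% to 98% range were chosen after the transcript shares were seen. Every one of the 60 genes at 1 TPM in a pool was to be named with both values, and of other pathway genes up to 4 highest and 2 lowest of each group and those 1.5-fold apart. A search for the lipid attachment site in WNT proteins is not analysed here.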

Additional observations from a re-analysis of the deposited data

How the results depend on the processing

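No paired analysis was possible because the series holds 1 group, with 1 library for each of 2 pools. With a minimum of 5 TPM in place of 1, detection went to 7 ligands, 11 receptors and coreceptors and 5 antagonists, and stayed within 1.5 times the reported count in the other classes, since the stricter level removes the low genes. With a minimum of 0.5 TPM it went to 18 ligands, at the limit of what was called like. Taking shares from expected counts, which are not per length, gave 41.04% for Wnt5a, 59.8% for Rspo2, 28.9% for Fzd2, 22.4% for Ror2, 75.0% for Lgr4, 39.0% for Sfrp2 and 47.1% for Tcf7l2. By counts Fzd3 passed Fzd2 and Lrp6 passed Ror2. Scaling by spike-in totals moved the median log2 ratio of all genes to -0.21. Under it Wnt2 and Fzd9 fell short, and 3 WNT genes (Wnt3a, Wnt7a and Wnt8b) were at least 1.5-fold higher in replicate 2, beside 0.926% of all genes, and 3 (Wif1, Dkk2 and Dkk3) in replicate 1, beside 6.25%. Over all genes tested, the number higher in replicate 2 went from 276 to 130 and the number higher in replicate 1 from 373 to 878. With a mean count of at least 10, Sfrp4 joined the genes higher in replicate 2 and Wnt10a those higher in replicate 1, beside 4.39% and 6.23% of all genes, and under the TPM ratio Wnt2 dropped out. With posterior means 22 of 22 pairs were set apart. Leaving out either pool left 49 to 51 genes detected, a count that could not fall, since detection otherwise needed both pools. None of the 7 genes 1.5-fold apart changed direction under the scalings and prior counts run. A scaling of whole libraries shifts all genes alike, here by less than 1.5-fold, so it could not reverse genes chosen at that threshold. Ratios near 0 of other genes were not followed. In all, 87 settings of main results gave like values and 11, printed here, moved, and for single genes, pairs and exons 128 gave like values and 13 moved. These tallies include settings that could not move. For shares and pairs, like meant within the SD of the 2 pools, which leaving out 1 pool cannot exceed. The tallies are therefore no measure of how firm the results are. At these depths the counting intervals of Wnt2 and Fzd9 reached below 1.5-fold.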
